A study of Mus musculus with 4 samples.

Results

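The mRNAs described here encode 40 translation initiation factors and poly(A)-binding proteins, taken by gene symbol from a table of 37411 genes. They cover eIF1 and eIF1A, eIF2 and its exchange factor eIF2B, 8 of the eIF3 subunits, the eIF4 group, eIF5, eIF5A, eIF5B and eIF6, and the poly(A)-binding proteins with their partners. Of the eIF3 subunits, those encoded by Eif3a, Eif3b, Eif3g, Eif3i and Eif3j1 are not members and are given at the end for comparison. Eif3c is a member, although its protein belongs to the part of eIF3 that yeast also has. All 40 had a row in the table and all 40 passed the filter on low counts.

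Hippocampal lysate of mice 7 to 9 weeks old was precipitated with a kinesin antibody that brings down KIF5C, a neuronal heavy chain of the microtubule motor kinesin-1, or with a control mouse IgG. The labels give no strain, genotype or treatment that separates the groups, and both antibodies were used on the same kind of lysate. Each co-immunoprecipitation used 2 mice, and 6 of them were pooled into 2 samples, which left 2 KIF5C libraries and 2 IgG libraries. Whether the 2 libraries of an antibody represent different animals is not stated, and the p-values therefore reflect the spread among these 4 libraries, part of which may be technical. No input RNA was analysed here, so a value compares the KIF5C precipitate with the IgG precipitate and not with the tissue.

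Initiation begins when eIF2 carries the initiator tRNA to the small ribosomal subunit, helped by eIF1, eIF1A, eIF3 and eIF5. The mRNA is brought in by eIF4F, which joins the cap-binding protein eIF4E, the scaffold eIF4G and the helicase eIF4A, while the poly(A)-binding protein holds the tail close to the cap. eIF5B then joins the large subunit, and eIF2B recharges eIF2 with GTP for the next round. In neurons, control of eIF2 and of eIF4E sets how much protein is made at synapses, and kinesin-1 is known to move particles that carry mRNA along dendrites. The mRNAs of the factors themselves are the subject here, not the proteins.

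The libraries held 12543510 counts (IgG 1), 11059266 (IgG 2), 15172432 (KIF5C 1) and 14623843 (KIF5C 2). The members took 0.387% and 0.4% of the counts in IgG 1 and KIF5C 1, and 0.248% and 0.275% in IgG 2 and KIF5C 2. The numbers also differed in the mitochondrial rRNAs, which took 9.44% and 13.6% of the libraries numbered 1 and 33.8% and 32.9% of those numbered 2. Protein-coding genes took 69.4% and 75.1% in IgG 1 and KIF5C 1, and 38.4% and 49% in IgG 2 and KIF5C 2. The TMM factors were 1.247 and 1.279, and 0.7119 and 0.8808, in the same order. The part of each in the members' share was not tested. Kif5c mRNA itself did not pass the test (log2 fold change 0.21, SE 0.27, edgeR adjusted p = 0.702). The summed abundance of 8 pyramidal neuron markers, in CPM (counts scaled by TMM library size), was 1970 to 2290 in the IgG libraries and 2580 to 2770 in the KIF5C libraries, and that of 6 choroid plexus markers was 236 to 434 and 129 to 169. None of the 8 pyramidal and 1 of the 6 choroid plexus markers passed the test. The other 6 cell types had 1 marker past the test, an oligodendrocyte gene that was lower, and no marker of any of the 8 types was at 0 in all 4 libraries. The oligodendrocyte sum was 2040 to 2050 CPM with IgG and 1770 to 1860 with KIF5C. Sums for endothelium (86.4 to 89.8 and 74 to 77.6) and blood (72.2 to 90.9 and 58.9 to 68.7) were also lower with KIF5C. Those of interneuron, astrocyte and microglia markers overlapped between the groups. The part of cell type in the results was not tested, and these sums compare precipitates of the same kind of lysate, not numbers of cells.

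The starts of 2 of these mRNAs are shown first because they carry the 2 calls, and 4 more because they stand at the other end of the range or share a feature with them. Each line gives the 30 bases around a transcription start that RefSeq annotates (GRCm38.p6), 5′ to 3′ on the strand of the gene, with 10 bases before the start and 20 from it. Capitals mark an oligopyrimidine tract, defined as a C at the start or within 2 bases of it followed by at least 4 bases that are C or T. Such tracts at the 5′ end are known from ribosomal protein and many translation factor mRNAs, whose translation follows mTOR signalling.
Eif3f (chr7:108934405-108934434, plus strand): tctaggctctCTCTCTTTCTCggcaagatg
Eif4g3 (chr4:137993445-137993474, plus strand): tccgagcggccgtcctgccggactgctgga
Eif3k (chr7:28981869-28981898, minus strand): aaccggcgctggtgctgaaagcgcctttcc
Eif3m (chr2:105017008-105017037, minus strand): cggtcggcgtgtttctggatcggagcgtct
Eif2s3x (chrX:94212632-94212661, minus strand): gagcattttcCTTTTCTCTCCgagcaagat
Paip1 (chr13:119428590-119428619, plus strand): cagtctcgcaCTTTTCTCCggagggaccag

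A tract was found in 6 of the 31 members with a RefSeq start window (19.4%), against 1273 of 10596 tested genes (12%) and 8.96% of all 32851 windows. The 6 were Eif2b5, Eif2s3x, Eif3f, Eif3l, Eif4g1 and Paip1. A gene was counted if any of its annotated starts had a tract, and Paip1 has another annotated start without one. Their log2 fold changes ran both ways, 2 above and 4 below 0, with a median of -0.26 against 0.06 for the 25 members without one. In the tested genes the medians were -0.02 with a tract and -0.02 without. Eif3f and Eif2s3x, whose marked tracts are 11 bases long when counted from the annotated start, lay on opposite sides of 0. In both windows the bases just before the start are also C or T. The pyrimidine run itself thus begins upstream, and the marked length follows from the search rule. These matches describe letters in a window and nothing was tested on them.

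Eif4g3 and Eif3f mRNAs were more abundant with KIF5C than with IgG, each by just under 2-fold, and no member was lower (edgeR quasi-likelihood test, Benjamini-Hochberg adjusted over 14357 genes, threshold 0.05). The 2 calls are 2 of 40, where 3.33% of all genes tested were called higher and 0.745% lower. At an unadjusted p under 0.05, 7 members were higher and 7 lower, against 12.4% and 9.06% of all genes. DESeq2 called the same pair higher and also called Eif3k and Eif3m lower, with 6.14% and 1.24% of its genes called. In the authors' deposited table, 2 of the 39 members with an adjusted p were called higher and 2 lower, where 5.82% and 1.08% of the table's genes were called.

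Taken as a list, the members lay evenly on both sides of 0. Of the 40 log2 fold changes 20 were positive and 20 negative, and their median was -0.04, beside -0.03 over all genes tested. In 12 members both KIF5C libraries lay above both IgG libraries, in 12 they lay below, and in 16 the groups overlapped. Over all genes tested, 26.3% lay above and 26.2% below, so the members' 30% each way is near the background. Their spread was also near it, with a median size of the log2 fold change of 0.41 beside 0.32.

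**Figure D1:**
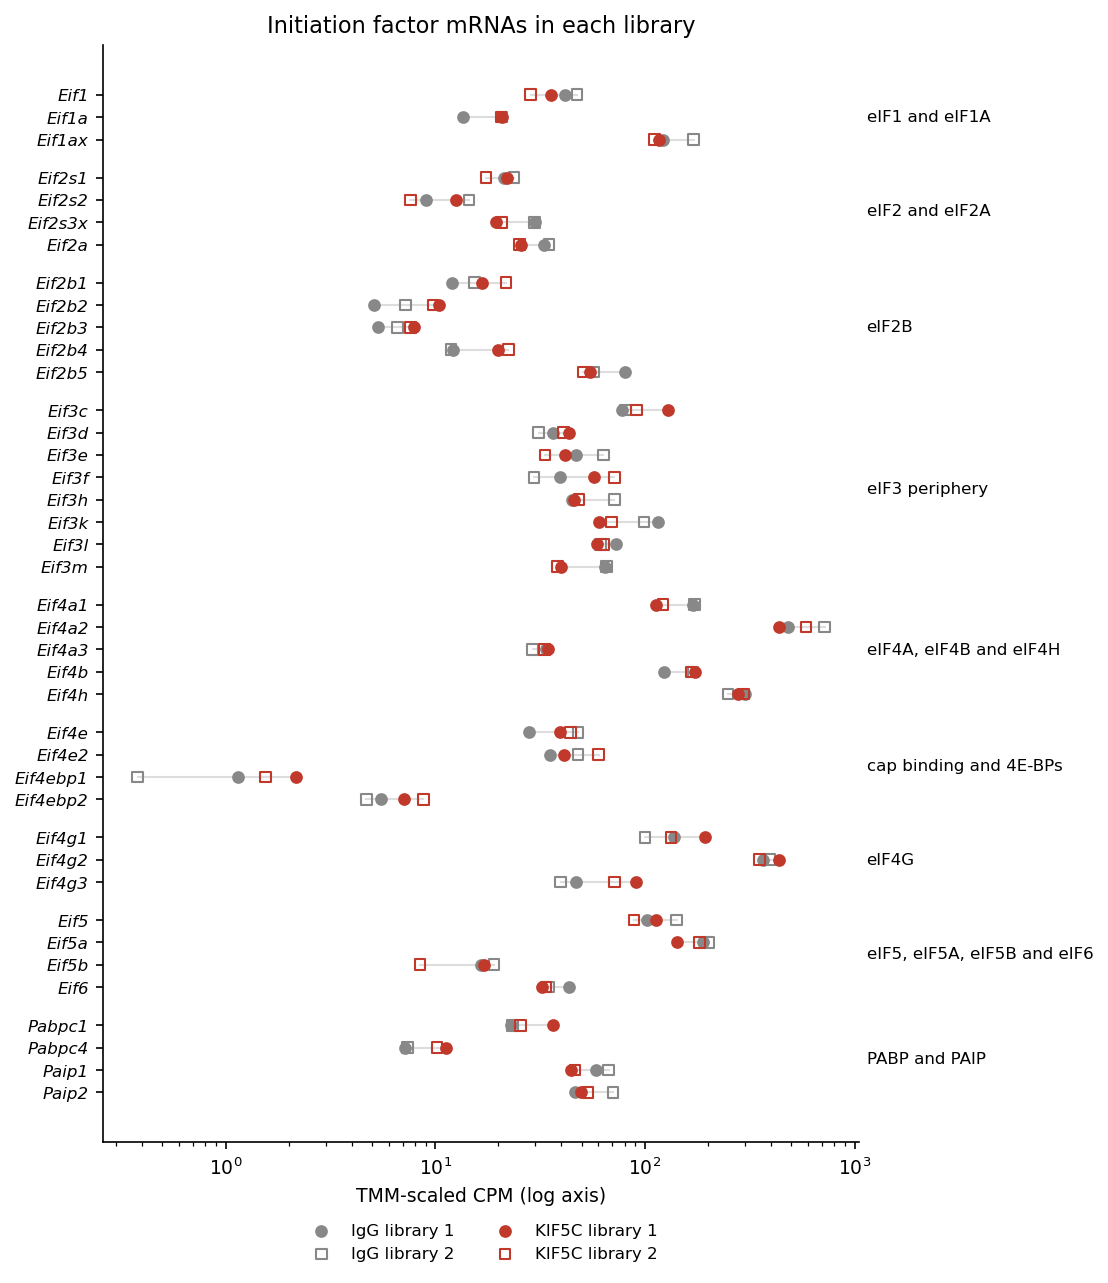
Abundance of each of the 40 mRNAs in each library, as TMM-scaled CPM on a log axis, grouped by complex; circles are the libraries numbered 1, squares those numbered 2, red is KIF5C and grey is IgG. Eif4g3, Eif3f and Eif2b4 have both red points to the right of both grey points, Eif3k, Eif3m and Eif4a1 the reverse, and Eif4ebp1 lies far below the rest.

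Levels of different mRNAs are compared here as CPM per kilobase of the longest annotated transcript, over all 4 libraries. Eif4a2, which encodes a form of the eIF4A helicase abundant in brain, was the highest at 205, followed by Eif5a at 125 and Eif4h at 103. Eif4g2 (48.4), Eif3k (48.2) and Eif4a1 (45.6) came next and lay close together. The lowest were Eif4ebp1 at 0.657 and Eif4ebp2 at 1.13, the mRNAs of a pair of eIF4E inhibitors. With the median transcript in place of the longest, Eif4a2 stayed first (722) and Eif4ebp1 last (0.939), while Eif4g2 moved to 668, in the second place. Levels between these ends therefore depend on which transcript is taken as the length.

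The eIF4G scaffolds showed the first of the 2 calls. Eif4g3 encodes eIF4GII, a paralogue of the main scaffold that binds eIF4E, eIF4A and the poly(A)-binding protein. It measured 46.8 and 39.6 CPM in the IgG libraries and 90.7 and 71.5 in the KIF5C libraries. Both KIF5C libraries were well above both IgG libraries, and the means were 81.1 ± 13.6 and 43.2 ± 5.06 CPM (SD, n = 2 each). The log2 fold change was 0.91, or 1.87-fold (SE 0.22, edgeR adjusted p = 0.0321). It was 0.95 within the libraries numbered 1 and 0.85 within those numbered 2. The call was lost without IgG replicate 2 (0.81, adjusted p = 0.111) or without KIF5C replicate 1 (0.73, adjusted p = 0.383), and the GC and length correction gave 0.60 (adjusted p = 0.0661). The gene lies on chromosome 4 (137993022 to 138208508, GRCm38) and its longest transcript, of 8134 nt, is the longest among the members.

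Its relatives did not pass. Eif4g1, the main scaffold, measured 138 and 100 CPM with IgG and 193 and 133 with KIF5C, so that the groups overlapped, and its log2 fold change was 0.45 (SE 0.25, adjusted p = 0.311). Eif4g2, encoding DAP5, a scaffold that lacks the eIF4E-binding site, measured 365 and 393 CPM with IgG and 436 and 353 with KIF5C (0.06, SE 0.26, adjusted p = 0.924). The ratio of counts of Eif4g3 to Eif4g1, which does not depend on scaling, was 0.338 and 0.396 in the IgG libraries and 0.47 and 0.536 in the KIF5C libraries. Against Eif4g2 it was 0.128 and 0.101 with IgG and 0.208 and 0.203 with KIF5C. Both ratios were higher in each KIF5C library than in each IgG library, but with 2 libraries against 2 an exact two-sided permutation test cannot go below p = 0.333. These ratios, like those below, were chosen after the values were seen.

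In eIF3, the largest initiation factor and the platform on which the others assemble, the subunit mRNAs spread widely on both sides. Eif3f encodes a subunit with an MPN domain. It measured 39.4 and 29.6 CPM in the IgG libraries and 57.0 and 71.5 in the KIF5C libraries. The groups did not overlap, and the means were 64.2 ± 10.3 and 34.5 ± 6.92 CPM (SD, n = 2 each). The log2 fold change was 0.89, or 1.85-fold (SE 0.23, edgeR adjusted p = 0.038). It was 0.53 within the libraries numbered 1 and 1.27 within those numbered 2. The call was lost when IgG 2 was left out (0.72, adjusted p = 0.136), as it was when KIF5C 1 (1.05, 0.0975) or KIF5C 2 (0.74, 0.26) was, and it held under the GC and length correction (0.88, 0.0245). The gene lies on chromosome 7 (108934417 to 108942951).

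Eif3m and Eif3k encode subunits with PCI domains and were the lowest members. Eif3m measured 64.7 and 65.5 CPM with IgG and 39.6 and 38.3 with KIF5C, a log2 fold change of -0.74 (SE 0.21). The groups were far apart for the spread within them, yet edgeR gave an adjusted p of 0.0529, just over the threshold, and DESeq2 0.026. The GC and length correction moved the value to -0.22 (adjusted p = 0.532), and GC was 38.8% in this transcript. Eif3k measured 115 and 98.9 CPM with IgG and 60.3 and 69.3 with KIF5C (-0.73, SE 0.22, adjusted p = 0.0673 with edgeR and 0.0269 with DESeq2). Its corrected value was -0.71 (adjusted p = 0.0362). The authors' deposited table, with its sign turned to KIF5C over IgG, has -0.65 for Eif3m, -0.64 for Eif3k, 0.79 for Eif3f and 0.82 for Eif4g3, all with adjusted p under 0.05.

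Ratios between eIF3 subunit mRNAs set the higher member against the lower ones within each library. The ratio of Eif3f to Eif3m counts was 0.609 and 0.452 in the IgG libraries and 1.44 and 1.87 in the KIF5C libraries. The ratio of Eif3f to Eif3k was 0.341 and 0.299 with IgG and 0.944 and 1.03 with KIF5C. In both ratios each KIF5C library was over 2-fold above each IgG library, with the same limit on the permutation test as above.

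The other members of eIF3 did not pass. Eif3c, the most abundant by CPM, measured 78 and 80.9 CPM with IgG and 129 and 91.1 with KIF5C (log2 fold change 0.47, SE 0.23, adjusted p = 0.247). Eif3d, whose protein can bind the cap of some mRNAs, had 0.31 (SE 0.21). Eif3e had -0.55 (SE 0.23, adjusted p = 0.167) and was past the threshold only without IgG replicate 1 (-0.76, adjusted p = 0.0306), among the settings tried. The GC and length correction put it at -0.14. Eif3h, the other MPN subunit, had -0.30 (SE 0.24) and Eif3l -0.13 (SE 0.21), and in both the groups overlapped. The 8 members had a median of -0.22, with 3 positive and 5 negative.

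**Figure D2:**
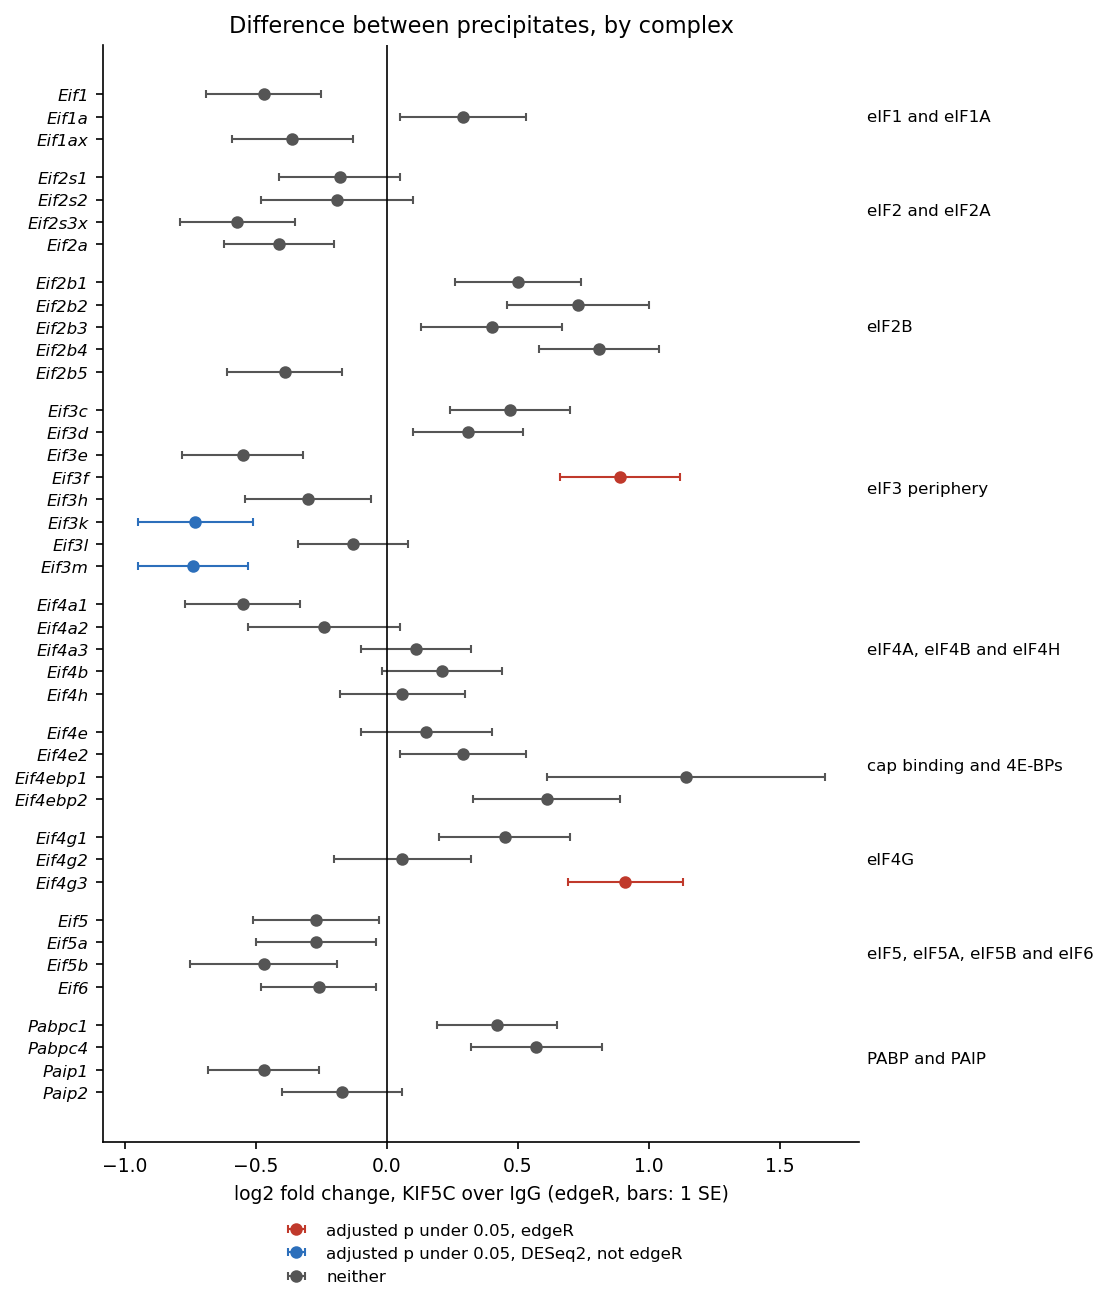
Log2 fold change of each of the 40 mRNAs, KIF5C over IgG, from the edgeR fit, with bars of 1 SE, grouped by complex. Eif4g3 and Eif3f (red) passed in edgeR, Eif3k and Eif3m (blue) in DESeq2 but not in this edgeR fit; 4 of 5 eIF2B subunits lie above 0 and all 4 genes of the eIF2 group below it, though Eif2s1 and Eif2s2 turn positive with library totals.

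In eIF2B, the exchange factor whose activity sets the supply of active eIF2 and is blocked in the integrated stress response, 4 of the 5 subunit mRNAs were above both IgG libraries in both KIF5C libraries, and 1 was below, where 26.3% and 26.2% of all genes tested lay above and below. None passed the test. Eif2b4, encoding the delta subunit of the regulatory core, came closest. It measured 12.1 and 11.9 CPM with IgG and 19.9 and 22.3 with KIF5C. The groups were well apart, and the log2 fold change was 0.81, or 1.75-fold (SE 0.23, edgeR adjusted p = 0.0529, DESeq2 adjusted p = 0.0539). It passed without IgG replicate 1 (adjusted p = 0.0466) and without the low-count filter (0.0233), and did not without IgG replicate 2 (0.106), KIF5C replicate 1 (0.23) or KIF5C replicate 2 (0.288). In the authors' deposited table its adjusted p is 0.054.

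The beta and alpha subunits followed, with Eif2b2 at 0.73 (SE 0.27, adjusted p = 0.133) and Eif2b1 at 0.50 (SE 0.24, adjusted p = 0.236). Eif2b3, the gamma subunit, had 0.40 (SE 0.27). Eif2b5 encodes the catalytic epsilon subunit and was much the most abundant of the 5 by CPM, with 80.7 and 56.9 CPM in the IgG libraries and 54.5 and 50.9 in the KIF5C libraries. Its log2 fold change was -0.39 (SE 0.22, adjusted p = 0.332), and it was -0.11 without IgG replicate 1. The ratio of Eif2b4 to Eif2b5 counts was 0.151 and 0.21 with IgG and 0.365 and 0.438 with KIF5C. The median of the 5 was 0.50, and 0.57 with the GC and length correction. Eif2b2, Eif2b3 and Eif2b4 had fewer than 100 counts in at least 1 library.

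The genes of eIF2 itself lay on the other side. Eif2s3x encodes the gamma subunit, which binds GTP and the initiator tRNA, from the X chromosome. It measured 29.8 CPM in both IgG libraries and 19.5 and 20.7 in the KIF5C libraries (log2 fold change -0.57, SE 0.22, adjusted p = 0.139). The groups did not overlap, but the test was not passed. Eif2a, a separate protein that can deliver initiator tRNA without eIF2, measured 33.0 and 34.9 CPM with IgG and 25.7 and 25.2 with KIF5C (-0.41, SE 0.21, adjusted p = 0.275). For Eif2s1, the alpha subunit phosphorylated under stress, and Eif2s2, the beta subunit, the values were -0.18 (SE 0.23) and -0.19 (SE 0.29) with overlapping groups. For Eif2s2 the libraries numbered 1 gave 0.46 and those numbered 2 gave -0.92. The median of the 4 was -0.30, but 0.01 with the GC and length correction. Eif2s1 and Eif2s2 turned positive with that correction (0.11 and 0.16) and with library totals as the scaling (0.00379 and 0.07).

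Eif1 and Eif1ax, whose proteins hold the small subunit open while it scans for the start codon, were also on the lower side. Eif1 measured 41.4 and 47.5 CPM with IgG and 35.6 and 28.5 with KIF5C (log2 fold change -0.47, SE 0.22, adjusted p = 0.227). Eif1ax, the most abundant of the 3, measured 122 and 171 CPM with IgG and 117 and 111 with KIF5C (-0.36, SE 0.23, adjusted p = 0.396). Its value rested on IgG 2, being -0.08 without that library, and was -0.09 with the GC and length correction. Both had KIF5C libraries below IgG libraries, by less than the test requires. Eif1a had 0.29 (SE 0.24), and its groups overlapped.

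Of the helicase group, Eif4a1 mRNA, which encodes the general eIF4A helicase, measured 170 and 173 CPM with IgG and 113 and 122 with KIF5C. The replicates lay close together and the groups apart, with a log2 fold change of -0.55 (SE 0.22) and an adjusted p of 0.16. Eif4a2 had 484 and 720 CPM with IgG and 434 and 586 with KIF5C, with overlapping groups (-0.24, SE 0.29, adjusted p = 0.672). The ratio of Eif4a1 to Eif4a2 counts was 0.351 and 0.24 with IgG and 0.26 and 0.208 with KIF5C, so that the ranges overlapped. Eif4a3, of the exon junction complex, had 0.11 (SE 0.21). Eif4b and Eif4h, whose proteins stimulate the helicase, had 0.21 (SE 0.23) and 0.06 (SE 0.24).

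The cap-binding group was positive in all 4 members, with a median of 0.45, and none passed. That direction was not held by every member when 1 library was left out, as Eif4e was at -0.19 without IgG replicate 1 and Eif4e2 at 0.01 without KIF5C replicate 2. Eif4ebp2, the mRNA of the eIF4E inhibitor that predominates in the brain, measured 5.50 and 4.70 CPM with IgG and 7.06 and 8.77 with KIF5C (log2 fold change 0.61, SE 0.28, adjusted p = 0.218). Eif4ebp1 had the highest value of all members, 1.14, but on few reads, with 18 and 3 counts in the IgG libraries and 42 and 20 in the KIF5C libraries (SE 0.53, adjusted p = 0.227). Leaving out IgG 1 gave 2.28 and leaving out IgG 2 gave 0.72. Eif4e2, encoding the repressive cap-binding protein 4EHP, measured 35.3 and 47.9 CPM with IgG and 41.2 and 60.1 with KIF5C (0.29, SE 0.24, adjusted p = 0.517). Eif4e itself had 0.15 (SE 0.25, adjusted p = 0.769) with overlapping groups.

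The factors of subunit joining and the later steps were negative in all 4 members, with a median of -0.27, and none passed. Eif5 was at 0.00295 without IgG replicate 2. Eif5b, the GTPase that joins the subunits, measured 16.6 and 19.1 CPM with IgG and 17.0 and 8.46 with KIF5C, so the value of -0.47 (SE 0.28, adjusted p = 0.357) rested on the low second KIF5C library and was -0.05 without it. Eif5a, whose protein carries hypusine and aids the ribosome through difficult stretches, measured 190 and 202 CPM with IgG and 143 and 182 with KIF5C (-0.27, SE 0.23, adjusted p = 0.537). Eif5, the activator of GTP hydrolysis by eIF2, had -0.27 (SE 0.24), and Eif6, which keeps free large subunits apart from small ones, had -0.26 (SE 0.22).

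The poly(A)-binding proteins lay above 0 and their partners Paip1 and Paip2 below it, but Paip2 turned positive with library totals (0.04), with the GC and length correction (0.39) and without IgG replicate 2 (0.17). Pabpc4 measured 7.16 and 7.37 CPM with IgG and 11.3 and 10.2 with KIF5C (log2 fold change 0.57, SE 0.25, adjusted p = 0.201). Pabpc1, the main cytoplasmic form, had 0.42 (SE 0.23, adjusted p = 0.307), with groups that did not overlap. Paip1, which links the tail-binding protein to eIF4A and eIF3, measured 58.7 and 67.3 CPM with IgG and 44.2 and 46.4 with KIF5C (-0.47, SE 0.21, adjusted p = 0.201), and the GC and length correction gave -0.06. Paip2, the inhibitor of that link, was the most abundant of the 4 by CPM, with 46.4 and 70.4 CPM with IgG and 49.7 and 53.6 with KIF5C (-0.17, SE 0.23, adjusted p = 0.71). None of the 4 passed.

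The libraries of each replicate number were also compared by themselves. The labels tie nothing to the numbers, so this matching of KIF5C with IgG libraries is arbitrary. Of the 40 members, 15 were higher in the KIF5C library of both numbers, 13 were lower in both, and 12 changed sign between the numbers. The same shares over all genes tested were not computed, so these counts cannot be set against a background. The medians over the members were 0.13 for the libraries numbered 1 and -0.08 for those numbered 2, beside -0.02 and 0.00 over all genes tested. Eif4g3, Eif2b4 and Eif2b1 on the higher side, and Eif3m, Eif2s3x and Eif4a1 on the lower side, had nearly the same value in both. Eif2s2, Eif5b and Eif5 were near or above 0 for the first number and below it for the second.

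**Figure D3:**
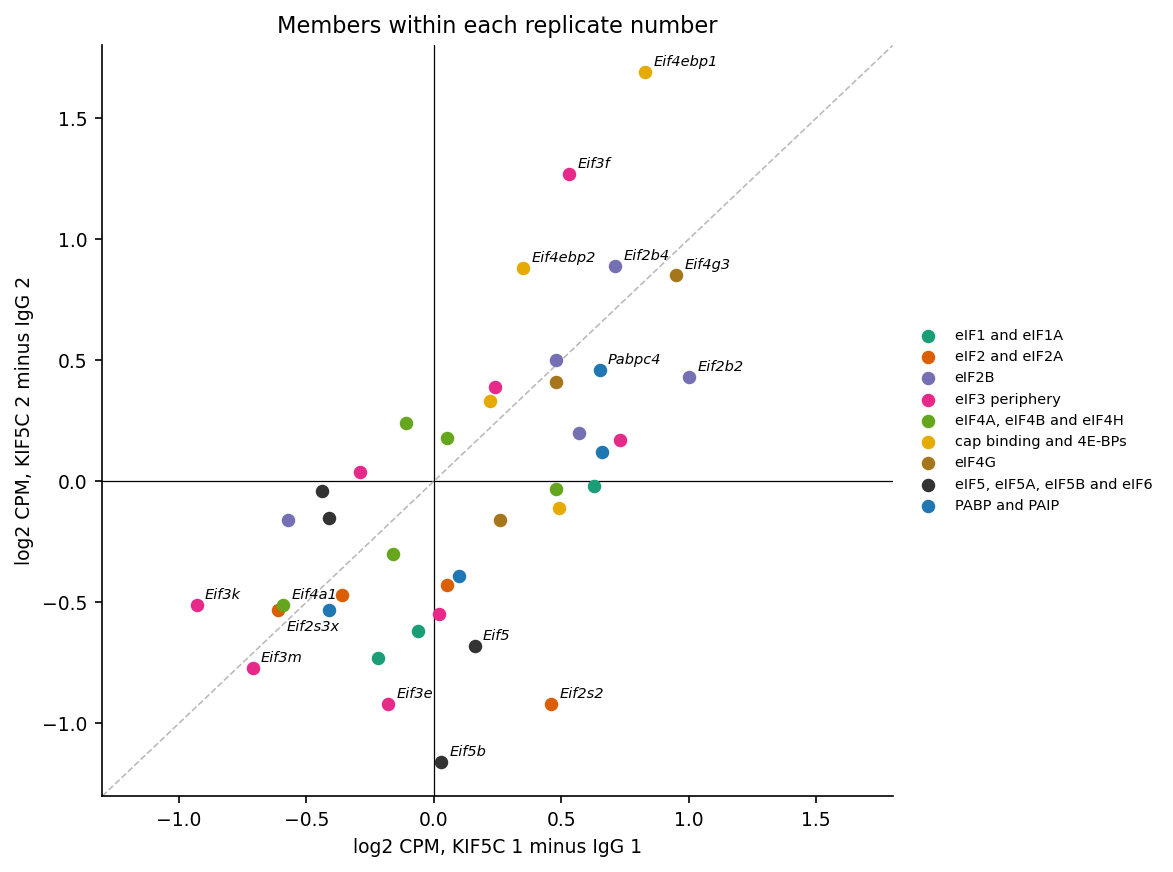
Difference in log2 CPM between KIF5C 1 and IgG 1 (horizontal axis) and between KIF5C 2 and IgG 2 (vertical axis) for the 40 members, coloured by complex, with the line of equal values dashed. The 15 members in the upper right and the 13 in the lower left had the same sign in both differences, and 12 lie in the other quadrants, Eif2s2 at 0.46 and -0.92 among them. The labels do not pair the libraries by number.

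Transcript composition moved with the fold change. Over the 40 members the rank correlation of the log2 fold change was 0.40 with GC content and 0.09 with length of the longest transcript, beside 0.33 and 0.20 over 13943 tested genes with an annotated transcript. These are correlations across genes of the same 4 libraries, given as descriptions. The 20 positive members had a median GC content of 50% and the 20 negative ones 42.7%. By complex the median GC content was 40% for eIF1 and eIF1A and 40.4% for the eIF2 group, both mostly below 0 in fold change, and 53.2% for eIF2B, mostly above it. Single genes within these groups departed from that order. Eif1, at -0.47, had 50.9% GC, and Eif1a, at 0.29, had 40%. Eif2b5, the only negative eIF2B gene at -0.39, had 53.2%. Other complexes did not follow that order, with 42.5% for the poly(A)-binding group, whose median fold change was 0.13 on the log2 scale, and 49.4% for eIF5, eIF5A, eIF5B and eIF6, all 4 negative. The part of GC content in the results was not tested beyond the corrected values given beside them. In that corrected fit Eif3f was higher and Eif3k lower past the threshold, with 2.76% of genes called higher and 1.12% lower.

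**Figure D4:**
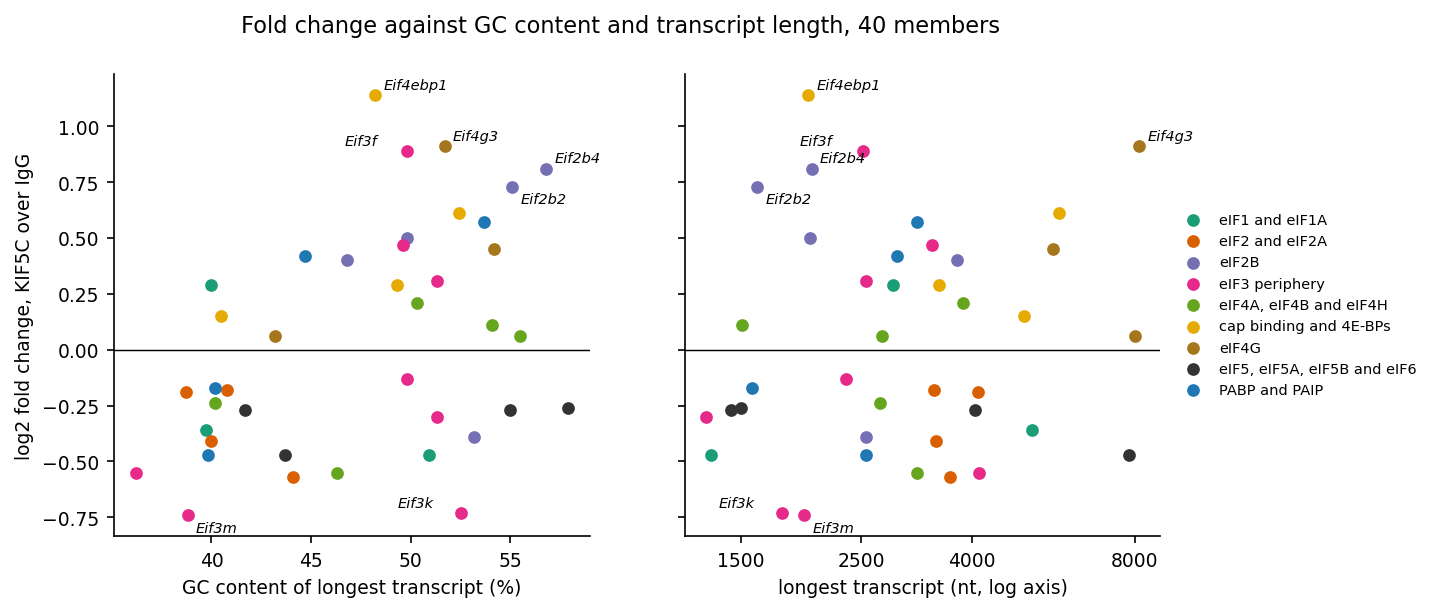
Log2 fold change of the 40 members, KIF5C over IgG, against the GC content (left) and the length (right, log axis) of the longest annotated transcript, coloured by complex. Members with a GC content near 40% lie mostly below 0, Eif3m at 38.8% and -0.74 among them, while Eif3k at 52.5% lies below and Eif4g3 at 51.7% above.

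Near-identical copies could blur some counts, because the submitters' processing notes name Salmon, which shares reads between similar transcripts. A stretch of at least 200 nt with at least 95% identity on the same strand was found in a transcript of another gene for 14 of the 40 members, 13 of them with a pseudogene. Eif1 shared such stretches with 13 genes and Pabpc4 with 8, so their values are uncertain, as are those of Eif2s3x and Eif4a3. Eif2s3x shared 1350 nt at 100% identity with a processed pseudogene. Eif4a3 shared 1450 nt at 95.6% identity with Gm8994, which is annotated as protein-coding. Eif3m shared 514 nt at 98.6% identity with 1 processed pseudogene. Eif3f, Eif3k, Eif4g3 and Eif2b4 shared none, though Eif2b4 overlapped a transcript of another gene on the opposite strand, and the strandedness of the counting is not given in the sources used here.

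Among the rest of the initiation pathway, 44 further genes were listed and 37 passed the filter. Of these, 1 was higher, 0 were lower and 36 did not pass in edgeR, where 3.33% and 0.745% of all genes were called. At an unadjusted p under 0.05, 5 were higher and 7 lower, against 12.4% and 9.06% of all genes. The call was Eif3g, an eIF3 subunit that binds eIF4B, at 1.11 (SE 0.23, adjusted p = 0.0162), and it was lost without KIF5C replicate 1 (1.03, adjusted p = 0.124). The other 4 eIF3 subunit genes tested outside the members were all negative, from Eif3a at -0.22 (SE 0.21) to Eif3j1 at -1.05 (SE 0.30, adjusted p = 0.0545). With the members, Eif3f and Eif3g were thus the 2 of 13 tested eIF3 genes called higher with edgeR, and 9 of the 13 were negative. Eif3c (0.47) and Eif3d (0.31) were positive without passing. DESeq2 also called Larp1 higher and Eif1b lower. Larp1, which binds oligopyrimidine mRNAs under mTOR control, had 0.78 (SE 0.22, edgeR adjusted p = 0.0553, DESeq2 0.0298). Eif1b, a close relative of Eif1, had -0.75 (SE 0.21, edgeR adjusted p = 0.0533, DESeq2 0.0244).

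Regulators of eIF2 and of the cap complex other than Larp1 had no adjusted p under 0.05 in either tool. Of the eIF2 kinase genes, Eif2ak2 had the highest value, 1.04 (SE 0.41, edgeR adjusted p = 0.155), on 24 and 11 counts with IgG and 69 and 32 with KIF5C, and DESeq2 gave it no adjusted p. The eIF2 kinase genes Eif2ak1, Eif2ak3 and Eif2ak4 had 0.42 (SE 0.21), 0.16 (SE 0.22) and 0.24 (SE 0.22). Cyfip1, whose protein with FMRP holds eIF4E, had 0.31 (SE 0.22), and its paralogue Cyfip2 had 0.61 (SE 0.28, edgeR adjusted p = 0.217). The kinase genes Mknk1 and Mknk2, which act on eIF4E, had -0.57 (SE 0.24) and -0.27 (SE 0.21).

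The calls moved with the fit, and the counts of members are given with the share of all genes called. limma-voom called Eif4g3 and Eif3f higher and Eif3m lower (3.71% and 0.836% of all genes). With DESeq2 size factors in edgeR the same 2 were higher and 0 lower (3.34% and 0.752%), as they were without mitochondrial rRNA (3.27% and 0.708%). With library totals in place of TMM no member was called, almost no gene was (0.00697% higher and 0.0279% lower), and the median of all genes moved to 0.11. Without the low-count filter Eif2b4 joined the 2 higher members (4.06% higher, 1.18% lower), and with a mean count of at least 50 Eif3m was called lower beside them (4.88% and 1.31%). A term for the replicate number gave 3 members higher, Eif4g3, Eif3f and Eif2b4, and 3 lower, Eif3k, Eif3m and Eif4a1 (8.09% and 3.61%).

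Calls also moved when 1 library was left out. Without IgG 1, Eif4g3, Eif3f and Eif2b4 were higher and Eif3e and Eif3m lower (6.56% and 3.93% of all genes). Without KIF5C 1 (0.757% and 0.17%) or without IgG 2 (1.82% and 0.257%) no member was called, and without KIF5C 2 only Eif4g3 was (2.07% and 0.465%). Eif4g3, Eif3f and Eif2b4 had log2 fold changes above 0.5 and Eif3k below -0.5 in all 14 settings, although the main fit did not call Eif2b4 or Eif3k. Eif4ebp1, on few reads, was also above 0.5 in every setting in which it was fitted. In contrast, Eif3m and Eif3e came to -0.22 and -0.14 with the GC and length correction.

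**Figure D5:**
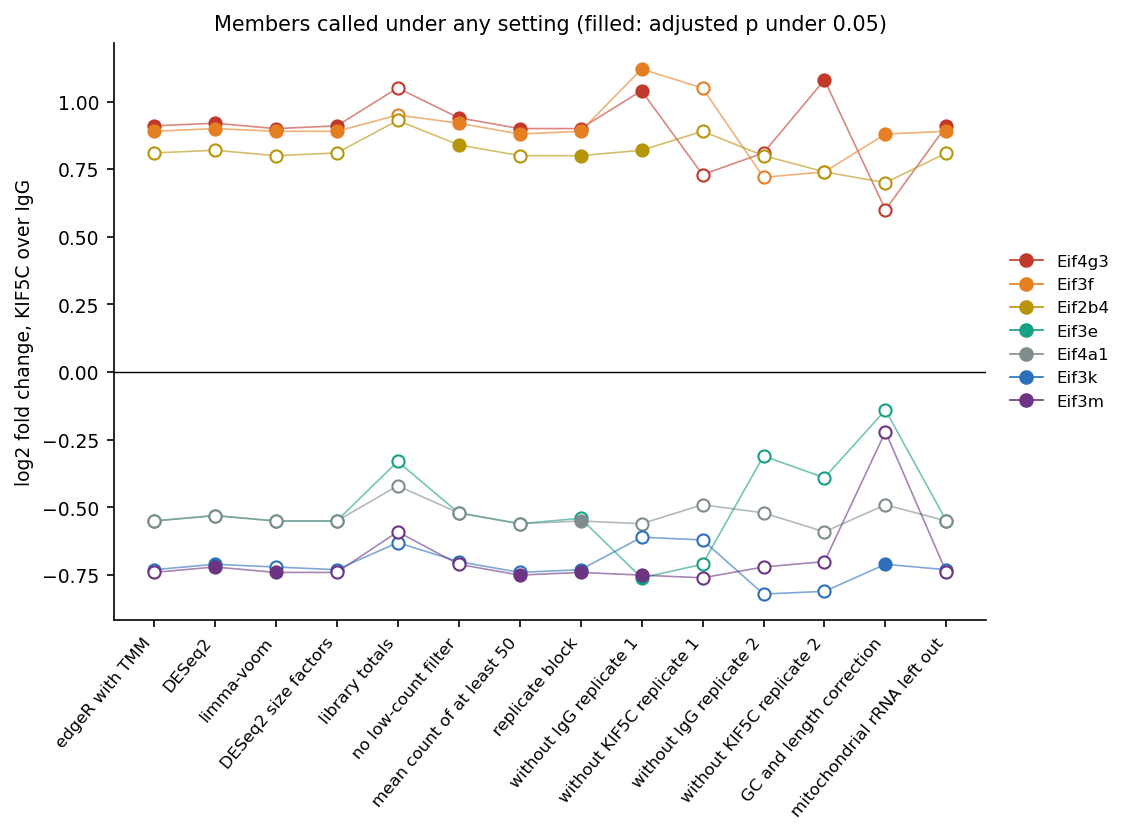
Log2 fold change, KIF5C over IgG, of the 7 members called under at least 1 setting, across the main fit and its 13 alternatives; filled points have an adjusted p under 0.05. Eif4g3, Eif3f and Eif2b4 lie above the rest in every setting, in an order that changes. The points of Eif4g3 and Eif3f are open with library totals and without IgG replicate 2 or KIF5C replicate 1. Eif3f is also open without KIF5C replicate 2, and Eif4g3 with the GC and length correction.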

How the data were processed

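RNA precipitated from mouse hippocampus was sequenced as 2 KIF5C and 2 IgG libraries. The values deposited by the authors are whole-number counts of reads for each gene, without normalization; columns were assigned through the sample descriptions. Per the submitters' processing notes, Salmon, DESeq and GRCm38 were used. Their versions, the annotation and the strandedness of counting are not stated there. The authors' deposited comparison gives log2 fold changes with standard errors (IgG over KIF5C) and adjusted p-values.

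Counts were tested on the whole table with edgeR 4.0.16 (R 4.3.3): TMM scaling, filterByExpr (minimum count 10, minimum total 15), the quasi-likelihood F test with group as the only term, and Benjamini-Hochberg adjustment over 14357 genes at 0.05. The SE is the size of the log2 fold change divided by the square root of F. The test was checked on simulated data. Differences within a replicate number use log2 CPM with a prior count of 2. Lengths, GC content and gene coordinates come from GENCODE M21 (GRCm38), with the longest transcript of a gene, and start windows from RefSeq. The GC and length correction used per-library smooths (mgcv 1.9.3) and covered 97.1% of genes tested. Copies were searched with blastn 2.17.0.

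The members and lists were chosen with earlier results of these data known. All 40 members are reported, with values in every library for those past the threshold in edgeR or DESeq2 and, in each of 9 groups, for the member with the smallest p and the one with the highest mean CPM. Values of Eif4g1 and Eif4ebp1, the ratios and the tract search were added after the values were seen. Alternatives were DESeq2 1.42.0, limma-voom (limma 3.58.1), other scalings and filters, a replicate block, each library left out, the GC and length correction and leaving out the 2 mitochondrial rRNAs.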

Additional observations from a re-analysis of the deposited data

How the results depend on the processing

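Of 519 values of single members under the 13 alternatives, 480 kept their sign and their side of the threshold, 8 lost a call, 13 gained one and 18 changed sign. Members called higher, 2 with edgeR, were 0 with library totals, 1 with the GC and length correction and 0 to 3 when 1 library was left out. Members called lower, 0 with edgeR, were 2 with DESeq2, 1 with limma-voom, 1 with a mean count of at least 50, 1 with the GC and length correction and 0 to 2 when 1 library was left out. Further pathway genes called higher, 1 with edgeR, were 2 with DESeq2, 0 with library totals, 2 without the low-count filter, 2 with a mean count of at least 50 and 0 to 2 when 1 library was left out. Those called lower, 0 with edgeR, were 1 with DESeq2, 1 with limma-voom, 1 without the filter, 2 with a mean count of at least 50, 2 with the GC and length correction and 0 to 3 when 1 library was left out. With the replicate block the counts were 3 members higher and 3 lower, 3 further pathway genes higher and 4 lower, and 1162 genes higher and 518 lower in all. The numbers were not counted as pairing the libraries: the labels tie nothing to them, and the deviations of same-numbered libraries correlated at 0.142 over 14357 genes. The median over the members, -0.04, was 0.11 with library totals, -0.14 with a mean count of at least 50, 0.13 with the GC and length correction and -0.05 to 0.11 when 1 library was left out. With library totals the medians by complex were -0.13 for eIF2, -0.06 for eIF3, 0.16 for eIF4A, eIF4B and eIF4H, and 0.32 for the poly(A)-binding group. With the GC and length correction they were 0.01 for eIF2, -0.13 for eIF3, 0.15 for eIF4G and 0.40 for the poly(A)-binding group. When 1 library was left out they ran from -0.48 to -0.20 for eIF2, from -0.30 to -0.08 for eIF3, from 0.28 to 0.66 for the cap-binding group and from -0.02 to 0.31 for the poly(A)-binding group. Values that changed sign were all short of the threshold in every fit compared. They were Eif2s1 (0.00379), Eif2s2 (0.07) and Paip2 (0.04) with library totals, and Eif2s1 (0.11), Eif2s2 (0.16), Eif4a2 (0.17), Eif4h (-0.11) and Paip2 (0.39) with the GC and length correction. When 1 library was left out, the values that crossed 0 ran from -0.00377 to 0.63 for Eif1a, -0.60 to 0.18 for Eif2s2, -0.60 to 0.08 for Eif3h, -0.50 to 0.09 for Eif4a2, -0.06 to 0.20 for Eif4h, -0.19 to 0.58 for Eif4e, -0.10 to 0.22 for Eif4g2, -0.49 to 0.00295 for Eif5 and -0.44 to 0.17 for Paip2. The cause was not tested for any of these. A group left with 1 library is assumed to vary like the other. Depth limits 7 of the 40 members, which had fewer than 100 counts in at least 1 library. They were Eif2s2, Eif2b2, Eif2b3, Eif2b4, Eif4ebp1, Eif4ebp2 and Pabpc4. In the main edgeR fit no member with a log2 fold change under 0.89 in size was called. Alternative edgeR fits called smaller values, such as Eif4a1 at -0.55 with the replicate block and Eif3k at -0.71 with the GC and length correction.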
